A study of Mus musculus with 26 samples.

Results

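The genes described here are 10 members of fibroblast growth factor (FGF) signalling: the receptors Fgfr1, Fgfr2 and Fgfr3, the feedback inhibitors Spry1, Spry2, Spry4 and Dusp6, and the transcription factors Etv1, Etv4 and Etv5. They were found by symbol among 30406 genes measured in every library of E15.5 mouse cortex nuclei. Spry2 brought the set to attention because its RNA was lower after maternal immune activation (MIA) in the libraries whose genotype label was not in doubt. MIA differences of the members are therefore given below as descriptions. The counts printed with them, of calls, of groups that did not overlap and of directions, are read as neither support nor evidence of no change.

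FGF receptors are receptor tyrosine kinases that, once bound by a ligand, activate a cascade of kinases that ends in ERK. ERK signalling in turn raises transcription of the ETS factors Etv1, Etv4 and Etv5 and of inhibitors that damp the same pathway, among them the Sprouty proteins and Dusp6, a phosphatase that removes phosphate from ERK. In the embryonic cortex FGF signalling is known for keeping the apical progenitors of the ventricular zone in a dividing state and for patterning the cortical areas.

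The libraries held sorted nuclei from the prospective somatosensory cortex of male C57Bl/6N embryos at E15.5. All dams had been injected intraperitoneally at E12.5, with saline or with poly(I:C), a double-stranded RNA that sets off an antiviral response and is used here to induce MIA. The 4 groups, of 2 libraries each, were wild type with saline, wild type with MIA, Csf1r-null with saline and Csf1r-null with MIA. Csf1r-null embryos lack the receptor Csf1r in every cell of the body, and microglia need this receptor. The paper names 4 pregnant dams in all and wild-type littermates as controls, so some of the libraries share a litter. Treatment was given to the dam, so no litter had both treatments, and the labels do not name the litters. The tests count libraries as independent, and p-values measure only the spread between these libraries.

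After filtering, 41539 nuclei remained, with 9271457 to 16478948 unique molecular identifiers (UMIs) per library. Replicate 1 and replicate 2 libraries of each group also differed in the software version, gene list and barcode filter with which they were made. Clusters were named from marker genes as apical progenitor (AP)-like, intermediate progenitor (IP)-like, migrating neuron-like, callosal (CPN), subcerebral (SCPN) and corticothalamic (CThPN) projection neuron-like, and interneuron-like nuclei, with dividing AP-like and dividing IP-like nuclei apart. The 3223 AP-like and 1635 dividing AP-like nuclei held 6076 to 9813 and 5880 to 7081 counts per 1e6 UMIs (CPM) of 11 apical progenitor markers in each library, against 417 to 545 in migrating neuron-like nuclei. The names of projection neurons were less firm. The CPN-like cluster had 3 of 7 callosal markers over 2-fold above the mean of clusters. Their sum was lower there (mean 1267 CPM) than in migrating neuron-like nuclei (1509 CPM). The SCPN-like cluster had 3 of 7 subcerebral and 2 of 7 corticothalamic markers over 2-fold. Its mean log2 over the mean of clusters was 0.41 for subcerebral and 0.90 for corticothalamic markers. The CThPN-like clusters had 4 and 2 of 7 subcerebral markers over 2-fold. The subcerebral sum was higher in SCPN-like (mean 1963 CPM) than in CThPN-like nuclei (1155 CPM). The CPN-like cluster was led by Inhba, Btbd11 and Cdh12, and the SCPN-like cluster by Ryr3, Kirrel3 and Ldb2. The border between these AP-like classes was not sharp. Markers of dividing cells over 2-fold above the mean of clusters were 6 of 7 in AP-like and 5 of 7 in dividing AP-like nuclei. Their sums overlapped, at 2667 to 4212 and 3033 to 4689 CPM. The 8 intermediate progenitor markers did not overlap, at 432 to 615 CPM in AP-like and 1899 to 2846 CPM in dividing AP-like nuclei. These classes thus do not differ in division alone, whatever the name. Another seed of the clustering left 14% of the dividing class in place and put most of it with the AP-like nuclei.

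The microglia-like nuclei went against 2 genotype labels. The library labelled as replicate 2 of wild-type MIA held 0 of 5085 nuclei of this kind, which allows a share of up to 0.0590%, whereas that labelled as replicate 2 of Csf1r-null saline held 7 of 5677. The other 3 wild-type libraries held 6 to 9 and the other 3 Csf1r-null libraries 0. Labels were kept as given, and values are shown with and without both libraries. Barcodes shared between any pair of libraries were at most 14.

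The 10 genes lie on 10 chromosomes in GRCm38 (GENCODE vM21). Spry2 is a short gene on the minus strand of chr14:105891947-105896819, and Dusp6 a short gene on the plus strand of chr10:99263231-99267489. Promoter windows were read for 7 of the 10 members, from the RefSeq promoter table of GRCm38.p6. The 250 bases before the start sites of Spry2 and Dusp6 are shown because these inhibitors of the same pathway were both high in CThPN-like nuclei, whereas in AP-like nuclei Spry2 was high and Dusp6 was under the level of empty droplets. The windows are chr14:105896820-105897069 on the minus strand and chr10:99262981-99263230 on the plus strand, both written 5′ to 3′ along the gene, with capitals marking GGAA, the core of sites that ETS factors bind, on either strand.
Spry2: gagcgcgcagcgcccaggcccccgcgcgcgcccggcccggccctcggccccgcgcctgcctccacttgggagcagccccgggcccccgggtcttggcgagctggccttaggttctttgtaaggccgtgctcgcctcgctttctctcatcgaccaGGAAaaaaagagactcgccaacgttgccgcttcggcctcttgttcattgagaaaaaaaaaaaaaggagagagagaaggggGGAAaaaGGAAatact
Dusp6: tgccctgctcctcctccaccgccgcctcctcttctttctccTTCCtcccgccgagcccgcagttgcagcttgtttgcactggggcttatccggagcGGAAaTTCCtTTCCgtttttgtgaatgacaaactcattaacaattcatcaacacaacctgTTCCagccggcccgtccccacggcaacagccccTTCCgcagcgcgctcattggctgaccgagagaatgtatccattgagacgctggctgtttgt
The Spry2 window held 3 matches and the Dusp6 window 6. GGAA is a short word that 93.4% of 32851 promoter windows of this length hold. The longer word CCGGAAG, which overlaps GGAA and is held by 6.91% of windows, and the AP-1 and CRE words TGACTCA and TGACGTCA, held by 4.46% and 1.55%, were found in none of the 10 windows of members.

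Levels are given in CPM: a gene's UMIs as a share of all UMIs of that class in that library, scaled to 1e6 UMIs. They compare classes for 1 gene and not genes with each other, since gene length and priming differ. Class levels are descriptions, because the classes were clustered from the same nuclei, although the 10 members took no part in the clustering.

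Fgfr1 was highest in the AP-like classes and in CPN-like neurons. It measured 235 ± 39.0 CPM in AP-like nuclei (SD, n = 8 libraries), 186 ± 39.2 in dividing AP-like nuclei and 182 ± 29.2 in CPN-like nuclei. The ranges of these 3 classes overlapped, and CPN-like nuclei lay above the next class, migrating neuron-like nuclei at 93.2 CPM, in 8 of 8 libraries with no overlap. SCPN-like nuclei had 87.5 CPM, dividing IP-like nuclei 62.9 CPM and IP-like nuclei 49.6 CPM. CThPN-like nuclei were at the other end with 24.7 CPM, just below interneuron-like nuclei with 31.5. The means of these 2 classes and of IP-like nuclei were under the 56.3 to 73.1 CPM measured in the empty droplets of the replicate 1 libraries, and that of dividing IP-like nuclei was within it. The share of free RNA in levels this low was not tested.

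Among migrating neuron-like nuclei Fgfr1 was uneven. One of the 3 clusters, with Ndst3, Pdzrn3 and Nrp1 among its leading genes, had 136 ± 13.5 CPM of Fgfr1. The others, led by Itga4 and Cxcl12 and by Sema3c and Sstr2, had 49.6 ± 10.1 and 66.0 ± 15.6 CPM (SD, n = 8 libraries each). Callosal markers over 2-fold above the mean of clusters were 4 of 7 in the first cluster and 2 and 3 in the others. In the CPN-like cluster they were 3 of 7. Markers of migrating neurons were 5 of 7 in each of the 3 migrating neuron-like clusters.

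Fgfr2 was high in the AP-like classes and also in 2 classes of projection neurons. Fgfr2 measured 149 ± 37.8 CPM in dividing AP-like, 119 ± 31.5 in AP-like, 105 ± 14.9 in CPN-like and 104 ± 24.8 CPM in SCPN-like nuclei, and neighbours in this order overlapped. The next class down, interneuron-like nuclei with 50.8 ± 9.28 CPM, lay below SCPN-like nuclei in 8 of 8 libraries with no overlap. IP-like, CThPN-like and dividing IP-like nuclei had 41.8, 32.7 and 31.2 CPM of Fgfr2, and migrating neuron-like nuclei the least, 15.4 CPM, beside 33.7 to 39.3 CPM in empty droplets. Of the 2 CThPN-like clusters neither had a mean of Fgfr2 above the range of empty droplets, with 37.6 ± 12.3 CPM in the one with Htr1f, Hs3st4 and Nxph3 among its leading genes and 3.88 ± 4.74 CPM in the one led by Abca8a, Cdh18 and Kcnip4.

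Fgfr3 marked the progenitors. It measured 181 ± 30.2 CPM in dividing AP-like and 131 ± 27.7 CPM in AP-like nuclei (SD, n = 8), and no library of AP-like nuclei overlapped the IP-like nuclei, at 47.6 ± 15.1 CPM. In the 5 classes of neurons the mean ran from 1.17 CPM in interneuron-like nuclei to 8.49 CPM in migrating neuron-like nuclei, under the 9.21 to 15.2 CPM of the empty droplets.

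**Figure D1:**
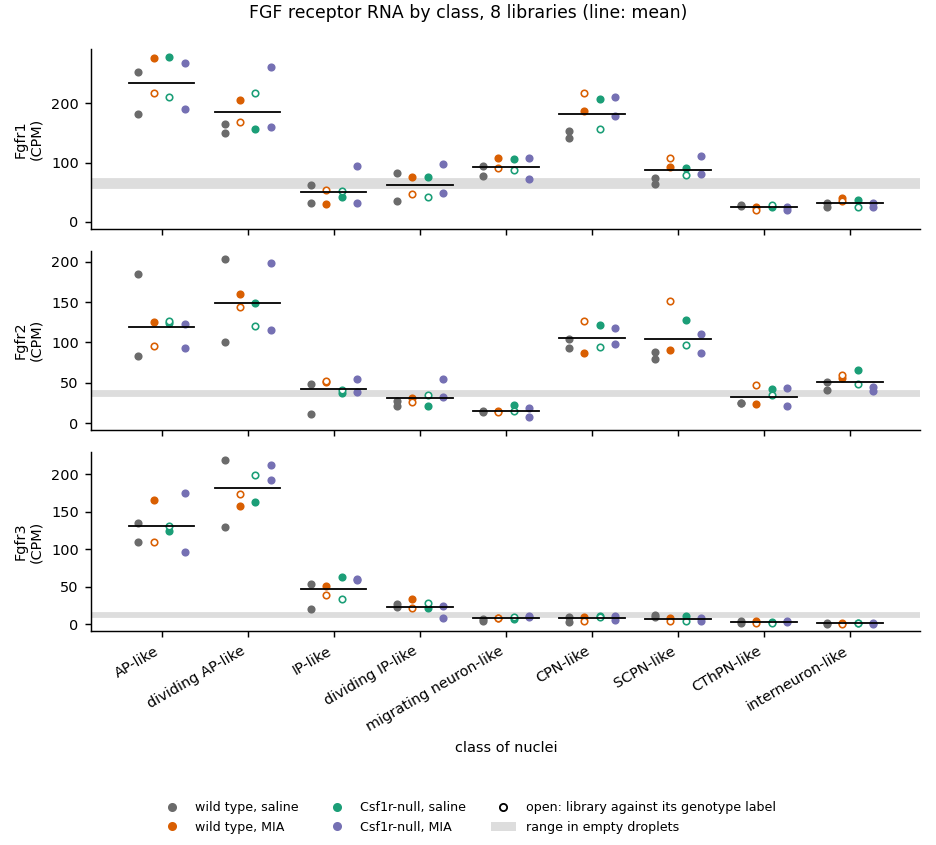
CPM of Fgfr1, Fgfr2 and Fgfr3 (vertical axes) in 9 classes of nuclei (horizontal axis), with 1 point per library, coloured by group and open for the 2 libraries that went against their genotype label. Lines are means of 8 libraries and grey bands the range in empty droplets of the replicate 1 libraries. Fgfr3 is at 131 to 181 CPM in the AP-like classes and at most 8.49 CPM on average in neurons, whereas Fgfr1 is also high in CPN-like nuclei (182 CPM) and Fgfr2 in CPN-like (105 CPM) and SCPN-like nuclei (104 CPM).

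Of the inhibitors, Spry2 and Dusp6 were the ones measured at more than a few CPM in progenitors or neurons. Spry2 measured 116 ± 40.4 CPM in AP-like nuclei and was high again in CThPN-like (73.2 ± 25.7 CPM) and interneuron-like nuclei (68.8 ± 11.7 CPM). In dividing AP-like nuclei it measured 52.8 ± 18.6 CPM. The ranges of neighbours in this order overlapped, with AP-like above CThPN-like nuclei in 7 of 8 libraries. Dividing AP-like nuclei lay above the next class, dividing IP-like nuclei at 20.6 CPM, in 8 of 8 libraries. In the other classes Spry2 was at most 20.6 CPM on average, beside 17.7 to 37.9 CPM in empty droplets.

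Dusp6 was high in deep-layer projection neuron-like nuclei and not in AP-like nuclei. It measured 67.9 ± 15.3 CPM in CThPN-like and 50.3 ± 9.86 CPM in SCPN-like nuclei, with CThPN-like above SCPN-like in 8 of 8 libraries although the ranges overlapped, and 8.50 CPM in CPN-like nuclei. Within the CThPN-like class it measured 74.3 ± 17.7 CPM in the cluster with Htr1f among its leading genes and 30.8 CPM in the one led by Abca8a. In AP-like nuclei it measured 3.84 CPM, under the 24.8 to 37.3 CPM of the empty droplets. Microglia-like nuclei had a Dusp6 level of 161 ± 57.7 CPM (SD, n = 4 libraries), from 9 UMIs in 31 nuclei. The same nuclei held 0 UMIs of Fgfr1, Fgfr2, Fgfr3, Spry1, Spry2, Spry4 and Etv4, 2 of Etv1 and 4 of Etv5 (88.2 ± 83.7 CPM).

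Spry1 and Spry4 were close to 0 in the 9 classes. Spry1 was highest in CPN-like nuclei, at 6.27 ± 2.40 CPM. Spry4 measured 5.57 ± 3.90 CPM in AP-like nuclei and 1.52 CPM in dividing AP-like nuclei, and 0 UMIs of 18673336 in CThPN-like nuclei, which allows up to 0.161 CPM. Counting error alone is covered by that limit. In 59 pericyte-like nuclei, in which all 6 endothelial and all 5 fibroblast markers were also over 2-fold above the mean of clusters, Spry1 had 12 UMIs, Spry4 11 and Spry2 20, or 71.1, 97.5 and 129 CPM on average over 8 libraries.

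Among the 9 classes tested, the Etv factors were highest in AP-like nuclei. Etv1 measured 165 ± 35.0 CPM in AP-like nuclei and 74.3 ± 23.3 CPM in dividing AP-like nuclei, with no overlap between these classes. Dividing IP-like nuclei (54.6 CPM), IP-like nuclei (52.8 CPM) and interneuron-like nuclei (42.0 CPM) overlapped each other, and the projection neuron-like classes had less than 1 CPM on average. Etv4 was found mainly in AP-like nuclei, at 22.0 ± 4.62 CPM, above dividing AP-like nuclei (5.59 CPM) in 8 of 8 libraries with no overlap. Etv4 measured 0.713 CPM in IP-like nuclei. Etv5 measured 64.1 ± 14.9 CPM in AP-like, 42.9 CPM in dividing IP-like and 42.7 ± 15.0 CPM in dividing AP-like nuclei. It measured 14.1 CPM in interneuron-like nuclei, 10.6 CPM in SCPN-like nuclei and 9.99 CPM in IP-like nuclei outside division, beside 8.50 to 14.8 CPM in empty droplets.

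**Figure D2:**
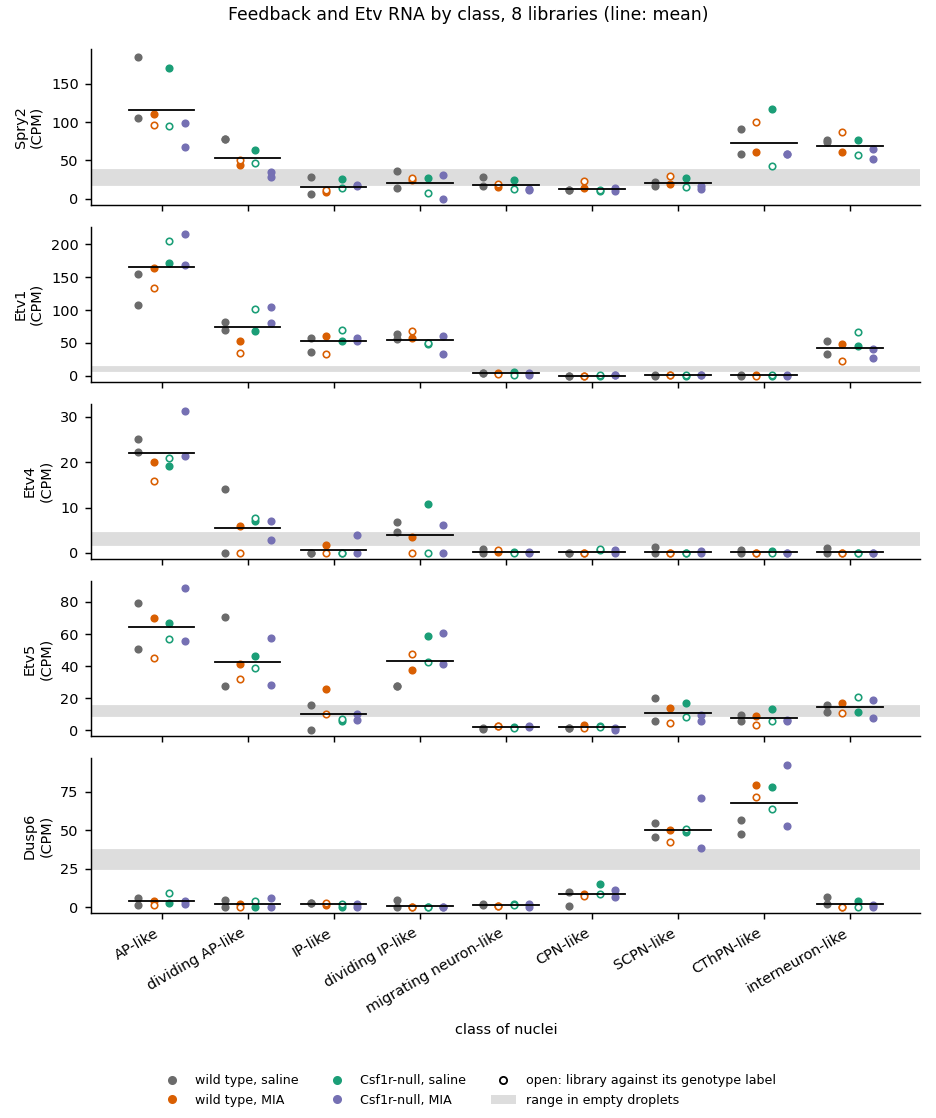
CPM of Spry2, Etv1, Etv4, Etv5 and Dusp6 (vertical axes) in 9 classes (horizontal axis), with points, lines and grey bands as in the plot of receptors. Spry2 is high in AP-like (116 CPM) and again in CThPN-like (73.2 CPM) and interneuron-like nuclei (68.8 CPM). Etv1, Etv4 and Etv5 are highest in AP-like nuclei, and Dusp6 in CThPN-like nuclei (67.9 CPM).

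For the 8 members that reached 20 CPM in some class, the 3 genes whose log2(CPM + 1) followed them best over 72 points (9 classes in 8 libraries) were found among 7917 genes. The points share libraries and classes, so these correlations are descriptions. Etv1 went with Sox2 (Pearson r = 0.96), Cdca7 (0.96) and Sox1 (0.95), of which Sox2 and Sox1 are transcription factors of neural progenitors. Fgfr3 went with Fstl1 (0.94), Lrp4 (0.93) and Nectin3 (0.93). Etv5 went with Cntln (0.86), Kbtbd11 (0.85) and Cep290 (0.84), where Cntln and Cep290 encode proteins of the centrosome. Etv4 went with Mest (0.81), Apoe (0.80) and Lipg (0.80).

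Dusp6 went with Ephb1 (0.90), Rgs6 (0.89) and Dync1i1 (0.87), and Fgfr1 with Pag1 (0.85), Ptn (0.83) and Peli2 (0.81). The likeness was weaker for Spry2, with Nova1 (0.75), Dmd (0.75) and Lmo3 (0.73), and for Fgfr2, with Fsd1l (0.75), Wwc2 (0.75) and Rest (0.68). By Spearman correlation 13 of these 24 genes stayed among the best 3.

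In AP-like nuclei Spry2 measured 186 and 105 CPM in the wild-type saline libraries, from 185 and 85 UMIs, and 111 CPM in wild-type MIA replicate 1, from 133 UMIs. The library labelled as replicate 2 of wild-type MIA had 96.8 CPM, from 86 UMIs. In Csf1r-null, saline replicate 1 had 171 CPM, the library labelled as saline replicate 2 had 94.7 CPM, and the MIA libraries had 98.2 and 67.9 CPM, from 125, 50, 94 and 38 UMIs. The 2 highest libraries were thus replicate 1 of both saline groups, the lowest was an MIA library, and MIA and saline overlapped in both genotypes.

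Without the 2 disputed libraries, 3 saline libraries (2 of wild type, 1 of Csf1r-null) and 3 MIA libraries (1 of wild type, 2 of Csf1r-null) were left, so that this comparison also holds part of the genotype difference. The 3 saline libraries lay between 105 and 186 CPM and the 3 MIA libraries between 67.9 and 111 CPM, still with a narrow overlap. No overlap, with MIA below, was found for 0 of the 7 members tested in these nuclei and with MIA above for 0, beside 5.18% and 6.40% of 10135 genes. In the pairs of the same genotype and replicate number, Spry2 was lower with MIA in 4 of 4, as were 6.62% of genes.

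The log2 difference of Spry2 between MIA and saline in AP-like nuclei was -0.55 ± 0.29 in wild type (SE of the fit), -0.68 ± 0.31 in Csf1r-null and -0.62 ± 0.21 averaged over both. Without both disputed libraries these were -0.48, -0.98 and -0.73. The saline replicate 1 libraries weighed most. Without that of wild type, the wild-type difference was -0.15 and the average -0.41, and without that of Csf1r-null, the Csf1r-null difference was -0.24 and the average -0.40. Without wild-type saline replicate 2 the wild-type difference was -0.87.

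Some values moved with these libraries. Wild-type saline replicate 1 had the most ventral progenitor marker RNA in AP-like nuclei, 131 CPM over 6 genes against 13.3 to 36.0 CPM in the other libraries. Of its 4515 nuclei 16.1% were striatal ventral neuron-like and 4.41% ventral progenitor-like, against at most 0.810% and 0.176% in the other libraries. The 12 microglial markers summed to 35.1 and 24.8 CPM in AP-like nuclei of the wild-type saline libraries and to 1.04 to 20.8 CPM in the other 6. In empty droplets of the replicate 1 libraries Spry2 ran the same way, at 37.9 CPM with saline and 22.3 CPM with MIA in wild type and 21.3 and 17.7 CPM in Csf1r-null. Their part in the result was not tested.

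In dividing AP-like nuclei Spry2 measured 77.4 and 77.5 CPM in wild type with saline, 43.5 CPM in wild-type MIA replicate 1 and 50.7 CPM in the one labelled as its replicate 2. Csf1r-null saline replicate 1 had 63.9 CPM, the library labelled as saline replicate 2 had 46.7 CPM, and the Csf1r-null MIA libraries had 34.6 and 27.9 CPM. These levels came from 8 to 22 UMIs each. Those of the Csf1r-null MIA libraries were within the 17.7 to 37.9 CPM of empty droplets, and the share of free RNA in them was not tested. The MIA libraries were below the saline libraries within both genotypes, and the undisputed ones also across them (27.9 to 43.5 against 63.9 to 77.5 CPM, with the genotypes unequally shared between the sides). The log2 difference was -0.76 ± 0.36 in wild type, -0.83 ± 0.42 in Csf1r-null and -0.79 ± 0.28 on average, and the average was -0.94 without both disputed libraries. It lay between -0.89 and -0.69 when each library was left out in turn.

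Because the border between the AP-like classes was not sharp, they were also merged, a choice made after seeing the data. The average Spry2 difference was then -0.68 ± 0.20, and it was -0.70 ± 0.21 in AP-like nuclei with another seed of the clustering.

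In the other classes the Spry2 differences were less even. The average over genotypes was below 0 in 7 of the 8 classes tested for Spry2. It was -0.55 ± 0.25 in migrating neuron-like nuclei, -0.16 ± 0.20 in interneuron-like nuclei, -0.18 ± 0.27 in CThPN-like nuclei and 0.39 ± 0.30 in CPN-like nuclei. In migrating neuron-like nuclei it was -0.83 without both disputed libraries, -0.35 without wild-type saline replicate 1 and -0.27 without Csf1r-null saline replicate 1. Spry2 was chosen on the undisputed libraries and the classes share these libraries, so the next count is no support. The undisputed MIA libraries all lay below the undisputed saline libraries in 3 of 8 classes, beside 5.03% of all gene and class pairs. Besides dividing AP-like nuclei these were migrating neuron-like (11.1 to 15.2 against 16.1 to 28.9 CPM) and interneuron-like nuclei (52.3 to 65.1 against 73.5 to 76.8 CPM). The migrating neuron-like levels were within or under the range of empty droplets, and the share of free RNA in them was not tested. In both of these the libraries in dispute went the other way, with 18.7 and 87.0 CPM in the one labelled as replicate 2 of wild-type MIA and 12 and 57.3 CPM in the one labelled as replicate 2 of Csf1r-null saline.

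**Figure D3:**
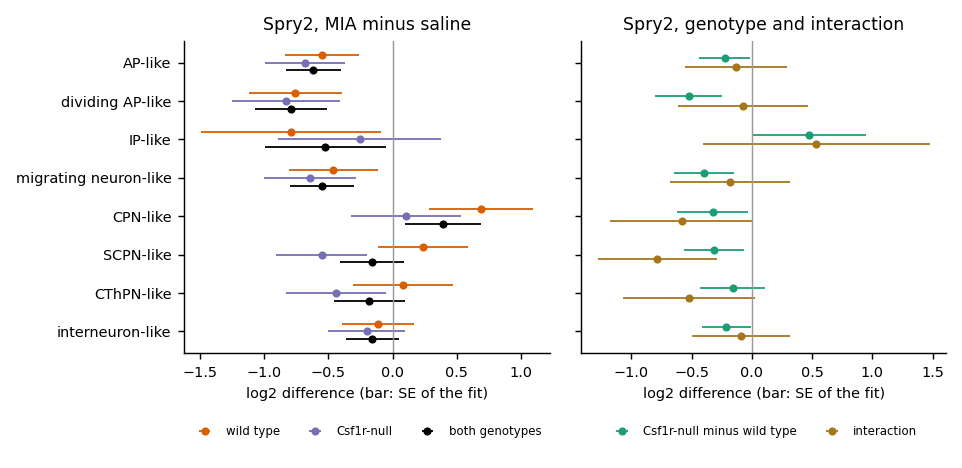
Log2 differences of Spry2 (horizontal axes) in the 8 classes where it was tested (vertical axis), with bars of 1 SE of the fit. Left, MIA minus saline in wild type, in Csf1r-null and averaged: the average is -0.62 in AP-like, -0.79 in dividing AP-like and 0.39 in CPN-like nuclei. Right, Csf1r-null minus wild type and the interaction, in which both values in AP-like nuclei are within 2 SE of 0.

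The other members went in both directions with MIA. The average over genotypes was below 0 in 1 of 9 classes tested for Fgfr1, 3 of 8 for Fgfr2, 2 of 6 for Fgfr3, 4 of 6 for Etv1, 4 of 5 for Etv5 and 1 of 3 for Dusp6, and in the 1 class each for Spry1 and Etv4. In the undisputed libraries, MIA lay wholly below saline in 4 of 47 member and class pairs (the 3 of Spry2 above and Fgfr3 in SCPN-like nuclei, 4.26 to 7.98 against 9.45 to 12.7 CPM) and wholly above in 1 (Fgfr3 in migrating neuron-like nuclei, 8.58 to 10.5 against 4.74 to 7.67 CPM), beside 5.03% and 5.26% of all pairs. The means of Fgfr3 in both of these classes were under the empty-droplet range. Over the 47 pairs, Spry2 included, that passed the filter on low counts (of 90; Spry4 passed in no class), 24 were lower after MIA averaged over genotypes, with a median log2 difference of 0.00, beside 49.1% of all 81848 pairs tested. In wild type 23 of 47 were lower (median 0.01; 49.1% of all pairs) and in Csf1r-null 27 of 47 (median -0.10; 49.2%). No pair of the 47 was called at an adjusted p under 0.05 in these 3 contrasts by edgeR, as 0.00% of all pairs were. That fit held no term for the replicate number. With such a term (the replicate block) 0 of the 47 were called. Of all pairs it called 544 in wild type, 0 in Csf1r-null and 50 on average. DESeq2 called 0 of the 38, 47 and 47 to which it gave an adjusted p for wild type, Csf1r-null and the average. Of all 81848 pairs it called 48, 0 and 1. An unadjusted edgeR p under 0.05 was reached by 4, 1 and 2 of the 47, beside 5.83%, 1.51% and 3.93% of all pairs.

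Some single differences of other members in wild type were as large as those of Spry2. Fgfr3 in SCPN-like nuclei differed by -0.86 ± 0.52, from 5 to 26 UMIs per library, and Spry1 in CPN-like nuclei by -0.79 ± 0.60. Fgfr2 differed by 0.73 ± 0.43 in IP-like nuclei, where wild-type saline replicate 2 had 11.6 CPM from 4 UMIs and the other 3 wild-type libraries 48.6 to 51.7 CPM. In SCPN-like nuclei Fgfr2 differed by 0.49 ± 0.27, and by 0.04 to 0.85 when each library was left out in turn. The value of 0.04 was that without the library labelled as replicate 2 of wild-type MIA. Etv1 in dividing AP-like nuclei differed by -0.79 ± 0.38 in wild type and by 0.12 ± 0.35 in Csf1r-null, and the wild-type value was -0.54 without both disputed libraries and -0.48 with no doublets removed.

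The receptors in AP-like nuclei had average log2 differences of 0.01 ± 0.16 for Fgfr1, -0.28 ± 0.22 for Fgfr2 and 0.09 ± 0.19 for Fgfr3. Etv1 differed by 0.06 ± 0.19, Etv4 by -0.02 ± 0.24 and Etv5 by -0.01 ± 0.21. Of the 47 member pairs, 4 had MIA below saline in 4 of 4 pairs of the same genotype and replicate number (Spry2 in both AP-like classes, Etv5 in SCPN-like and Etv1 in interneuron-like nuclei) and 3 had MIA above (Fgfr3 in migrating neuron-like nuclei and Fgfr1 in CPN-like and SCPN-like nuclei), beside 5.70% and 8.45% of all pairs. In SCPN-like nuclei Fgfr1 measured 63.3 and 74.3 CPM in wild type with saline, 92.0 and 108 CPM with MIA, 91.2 and 79.8 CPM in Csf1r-null with saline and 111 and 80.0 CPM with MIA, in the order of replicates 1 and 2. The Fgfr1 difference was 0.48 ± 0.22 in wild type and 0.16 ± 0.21 in Csf1r-null there, and 0.42 ± 0.20 and 0.10 ± 0.20 in CPN-like nuclei. The wild-type values were 0.31 in SCPN-like nuclei without wild-type saline replicate 1 (0.30 with another seed of the clustering) and 0.27 in CPN-like nuclei without the library labelled as replicate 2 of wild-type MIA.

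Dusp6 in CThPN-like nuclei ran from 47.4 to 78.0 CPM in the 4 saline libraries and from 52.9 to 92.4 CPM in the 4 MIA libraries, which overlapped. Dusp6 differed by 0.52 ± 0.22 in wild type, 0.03 ± 0.22 in Csf1r-null and 0.28 ± 0.16 on average in CThPN-like nuclei, and by 0.01 ± 0.18 on average in SCPN-like nuclei. In interneuron-like nuclei the Etv1 difference was -0.49 ± 0.28 on average, from 8 to 47 UMIs per library. That average was -0.15 without both disputed libraries, -0.86 without wild-type MIA replicate 1, and -0.30 both without wild-type saline replicate 1 and without the library labelled as replicate 2 of Csf1r-null saline.

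Some of the spread went with the replicate number. Fgfr1, Spry2 and Etv5 in AP-like nuclei were higher in replicate 1 than in replicate 2 in 4 of 4 groups, as 18.4% of genes were. Etv5, for example, measured 79.2 and 50.8 CPM in wild type with saline, 70.0 and 45.0 with MIA, 66.9 and 56.8 in Csf1r-null with saline and 88.8 and 55.4 with MIA, in the order of replicates 1 and 2. Depth went the same way. The median of UMIs per nucleus was 2404 and 2262 in wild type with saline and 2477 and 1855 with MIA. It was 1992 and 1454 in Csf1r-null with saline and 2917 and 1606 with MIA, in the same order. Software, gene list, depth and embryos cannot be told apart as sources of this.

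**Figure D4:**
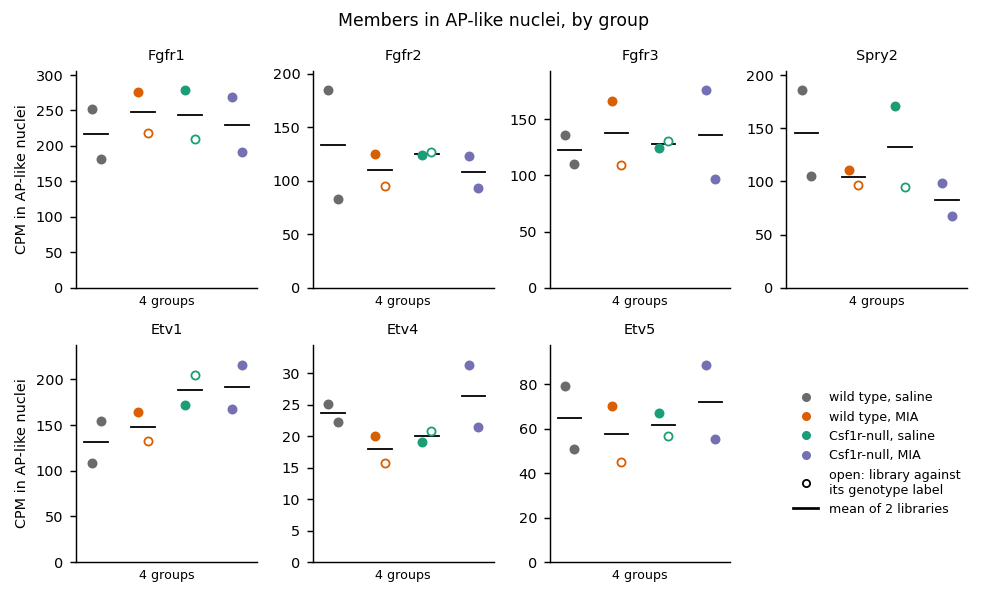
CPM in AP-like nuclei (vertical axes) of the 7 members tested there, by group (horizontal axes), with 1 point per library, open for the 2 libraries that went against their label, and a line at the mean of 2. The undisputed MIA libraries of Spry2 (67.9 to 111 CPM) lie lower than the undisputed saline libraries (105 to 186 CPM) with a narrow overlap. With the open points counted by their labels, Etv1 is higher in every Csf1r-null library (168 to 216 CPM) than in every wild-type library (108 to 164 CPM).

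Whether the response to MIA differed between genotypes is a question that the choice of Spry2 did not settle, so it was tested. No member passed in any class (edgeR's quasi-likelihood test with Benjamini-Hochberg adjustment, smallest adjusted p = 0.986; 0 of 47 pairs by DESeq2), beside 0.00% of all pairs, and 0 of 47 had an unadjusted p under 0.05, beside 2.79% of all pairs. These fits held no term for the replicate number. With the replicate block 0 of the 47 were called, beside 13 of all pairs. The interaction was below 0 in 32 of 47, with a median of -0.17, beside 49.8% of all pairs. For Spry2 in AP-like nuclei the interaction, the Csf1r-null response minus the wild-type response, was -0.13 ± 0.42 (edgeR adjusted p = 0.999). It was -0.50 without both disputed libraries and ran from -0.53 to 0.31 when each library was left out in turn.

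Etv4 in AP-like nuclei had MIA and saline apart in both genotypes, in opposite directions. Etv4 measured 25.1 and 22.3 CPM in wild type with saline, 20.0 CPM in wild-type MIA replicate 1 and 15.8 CPM in the library labelled as its replicate 2. In Csf1r-null it measured 19.1 CPM in saline replicate 1, 20.8 CPM in the one labelled as saline replicate 2, and 31.3 and 21.4 CPM with MIA. The gaps were small, and the levels came from 11 to 30 UMIs per library.

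That arrangement was found in 1.85% of the 10135 genes tested in these nuclei, and either opposite arrangement in 4.32%. The interaction of Etv4 was 0.88 ± 0.49 on the log2 scale (edgeR adjusted p = 0.998), and 0.63 to 1.04 over the alternatives tried, with an adjusted p of 0.739 or more. In dividing AP-like nuclei Etv4 did not pass the filter, with 0 to 4 UMIs per library. In dividing AP-like nuclei the interaction of Etv1 was 0.91 ± 0.51 (edgeR adjusted p = 0.999), 0.61 to 1.26 when each library was left out in turn and 0.54 with no doublets removed. That of Fgfr2 in SCPN-like nuclei was -0.68 ± 0.37, and -1.04 to -0.25 when each library was left out in turn. The value of -0.25 was that without the library labelled as replicate 2 of wild-type MIA. The interaction farthest from 0 among the members was that of Spry1 in CPN-like nuclei, 1.50 ± 0.85 (edgeR adjusted p = 1), from levels of 3.39 to 10.9 CPM.

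Csf1r-null and wild-type libraries were compared over both treatments. No member passed (edgeR, smallest adjusted p = 0.776, for Etv1 in AP-like nuclei). Of all 81848 pairs 0.00122% passed by edgeR, which is 1 pair, Tuba1b in dividing IP-like nuclei. By DESeq2 0 of 47 member pairs passed, beside 5 of all pairs. With the replicate block 0 of the 47 passed, beside 89 of all pairs. The difference was below 0 in 18 of 47 member pairs, with a median of 0.10, beside 49.6% of all pairs. An unadjusted p under 0.05 was reached by 2 of 47, beside 3.70% of all pairs, and both were Etv1, in AP-like and in dividing AP-like nuclei.

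Etv1 in AP-like nuclei measured 108 and 155 CPM in wild type with saline, 164 and 133 CPM with MIA, 172 and 204 CPM in Csf1r-null with saline and 168 and 216 CPM with MIA, in the order of replicates 1 and 2. The 2 disputed libraries were those labelled as replicate 2 of wild-type MIA (133 CPM) and of Csf1r-null saline (204 CPM). With these 2 labels exchanged the genotypes would overlap. As labelled, the 4 Csf1r-null libraries were above the 4 wild-type libraries, from 108 to 197 UMIs per library. The gap was narrow, between 164 and 168 CPM. Of the 47 member pairs, this was the 1 with every Csf1r-null library above, as 0.931% of all pairs had it, and 0 had every Csf1r-null library below, as 1.43% did. The log2 difference was 0.44 ± 0.19 (edgeR unadjusted p = 0.0366, adjusted p = 0.776).

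That difference rested in part on single libraries. It was 0.28 without wild-type saline replicate 1, the library with the most ventral progenitor marker RNA, 0.28 without both disputed libraries and 0.59 without wild-type saline replicate 2. With AP-like and dividing AP-like nuclei merged it was 0.41 ± 0.17. In dividing AP-like nuclei alone Etv1 measured 70.4 and 82.1 CPM in wild type with saline, 53.4 and 34.7 CPM with MIA, 67.5 and 101 CPM in Csf1r-null with saline and 80.7 and 105 CPM with MIA. The genotypes overlapped there, with a difference of 0.59 ± 0.26 (edgeR adjusted p = 0.938) that was 0.30 without both disputed libraries.

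The Spry2 difference, Csf1r-null minus wild type, is a description, because the undisputed libraries with which Spry2 was chosen set more Csf1r-null libraries on the MIA side and more wild-type libraries on the saline side. It was below 0 in 7 of 8 classes, at -0.52 ± 0.28 in dividing AP-like nuclei and -0.22 ± 0.21 in AP-like nuclei. The latter was -0.11 without both disputed libraries and -0.44 to -0.02 when each library was left out in turn, at its ends without saline replicate 1 of Csf1r-null and of wild type.

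**Figure D5:**
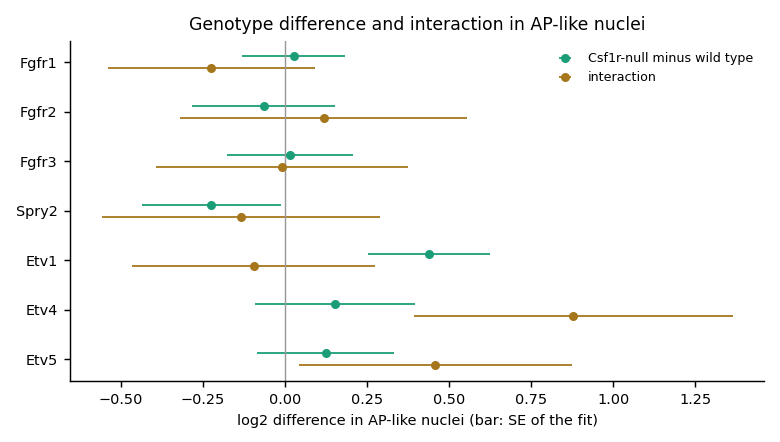
Log2 differences in AP-like nuclei (horizontal axis) for the 7 members tested there (vertical axis): Csf1r-null minus wild type, and the interaction of genotype with MIA, with bars of 1 SE of the fit. The interaction of Etv4 is 0.88 ± 0.49, and the genotype differences lie between -0.22 (Spry2) and 0.44 (Etv1).

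A list of 85 other genes of the pathway gave the surroundings of these members. In AP-like nuclei the 2 genes of most UMIs in each of 6 roles, an order that gene length and priming also set, were, by mean CPM, Fgf13 (78.1) and Fgf12 (12) among the FGF genes, both of which encode proteins kept inside the cell, and Flrt3 (40.0) and Fgfrl1 (37.3) among other receptors and co-receptors. Among adaptors they were Ptpn11 (67.4) and Plcg1 (52.5), among other inhibitors Spred1 (105) and Nf1 (87.5), among other induced genes Ccnd1 (70.1) and Etv6 (56.2), and among heparan sulfate genes Gpc6 (229) and Gpc1 (226).

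Some of these were higher elsewhere among the 9 classes tested. Flrt3, a membrane protein that binds FGF receptors, measured 263 ± 36.9 CPM in CPN-like nuclei (SD, n = 8), the class of neurons with the most Fgfr1. Fgf12 was highest in interneuron-like nuclei at 70.2 ± 9.38 CPM and Gpc6, a cell surface proteoglycan, in dividing IP-like nuclei at 297 ± 56.2 CPM. Spred1, an inhibitor related to the Sprouty proteins, was highest in AP-like nuclei among these 9 classes, like Spry2. Of 404 gene and class pairs tested from the list, from 62 genes, 0 were called in any contrast by edgeR, also with the replicate block, or among those to which DESeq2 gave an adjusted p. An unadjusted p under 0.05 was reached by 14 for MIA in wild type (5.83% of all pairs), 6 for MIA in Csf1r-null (1.51%), 12 for MIA on average (3.93%), 15 for the interaction (2.79%) and 11 for genotype (3.70%). After MIA 145 of the 404 pairs were lower in wild type, 180 in Csf1r-null and 145 on average, beside 49.1%, 49.2% and 49.1% of all pairs.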

How the data were processed

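For 8 libraries of nuclei, the deposited matrices hold raw UMI counts, assigned to genes and barcodes by the authors with Cell Ranger (mm10) and not normalized. The paper and the headers of the replicate 2 files name version 6.0.1, whereas the replicate 1 headers and the submitters' processing notes name 3.1.0. The 18 libraries of sorted microglia were not used here. The filter on barcodes was 500 UMIs and 200 genes, and 1917 of 43456 nuclei with the highest Scrublet scores were removed as doublets (0.8% per 1000 nuclei). Nuclei were clustered with scanpy 1.11.5 and leidenalg 0.10.2 (2000 variable genes, 30 components, 20 exact neighbours from scikit-learn 1.9.0, resolution 1, 20 clusters), without the 10 members, the pathway list and Csf1r, and named by hand from marker lists. Classes of which 1 library held most nuclei, and small classes, were not tested. The 3365 nuclei of clusters that were left unnamed, 3.32% to 11.2% of a library, were not tested either.

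Tests used the sum of UMIs over each class in each library, with the library as replicate. edgeR 4.0.16 in R 4.3.3 (TMM, filterByExpr by group, quasi-likelihood test, all 4 groups in 1 fit) gave log2 differences, with Benjamini-Hochberg adjustment within each class and contrast and a threshold of 0.05. DESeq2 1.42.0 was an alternative. The study's own mixed model of single nuclei was not run here. Empty droplets were barcodes of 10 to 100 UMIs in replicate 1 libraries.

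Members and lists were chosen with earlier results of these data known. Named were the members, the 2 pathway genes of each role highest in AP-like nuclei, any called, and the 3 genes most like each member (mean of at least 20 CPM). The genes of 1 role are not reported here. The replicate numbers paired the samples: the difference between replicates 1 and 2 correlated over genes between each of the 6 pairs of groups (r = 0.50 to 0.68 for all nuclei, 0.33 to 0.40 for AP-like nuclei). Where this comes from is not in the labels, and the number also stands for the software version. The scripts were tested on simulated data.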

Additional observations from a re-analysis of the deposited data

Results flagged for a closer look

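Fgfr2 stood out for 1 library in 3 classes. Of 37 levels of at least 20 CPM that were looked at over the 8 libraries, these 3 had an end library whose gap to the nearest one, as a share of the whole range, was above Dixon's 95% critical value for 8 values, and chance gives about 1 in 20, so that 3 of 37 is little more than chance gives. In AP-like nuclei wild-type saline replicate 1 had 185 CPM of Fgfr2, against 127 CPM in the next highest library and 83.0 CPM in the lowest (gap 0.568 of the range). The same library had 131 CPM of 6 ventral progenitor markers in these nuclei, against 13.3 to 36.0 CPM in the other 7, and the part of such nuclei in its Fgfr2 level was not tested. In IP-like nuclei wild-type saline replicate 2 had 11.6 CPM, from 4 UMIs, against 37.7 CPM in the next lowest library and 54.7 CPM in the highest (gap 0.604). In dividing IP-like nuclei Csf1r-null MIA replicate 1 had 54.7 CPM, from 9 UMIs, against 35.2 CPM in the next highest and 20.8 CPM in the lowest (gap 0.574). The means of these last 2 classes, 41.8 and 31.2 CPM, were near or under the 33.7 to 39.3 CPM of empty droplets.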

How the results depend on the processing

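The count of members called was 0 in each of the 5 contrasts under every alternative run: RLE size factors, no filter on low counts, DESeq2, the replicate block, nuclei of at least 1000 UMIs, no doublets removed, without both disputed libraries, and without each library in turn. The replicate block changed no call of a member, and with it the average Spry2 difference in AP-like nuclei was -0.62 ± 0.14. Over all 81848 pairs the block called 544 for MIA in wild type, 0 for MIA in Csf1r-null, 50 for MIA on average, 13 for the interaction and 89 for genotype, DESeq2 called 48, 0, 1, 0 and 5, and without the filter 160, 6, 45, 26 and 78 of 154724 were called. The causes were not tested.

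The 28 member differences followed were those with a low unadjusted edgeR p, with those of Spry2 and Etv4 in AP-like nuclei added. Differences chosen for a low p tend to keep their sign, so the count does not speak for the other differences. Of 452 alternative values, 443 kept their direction and 9 changed sign. For MIA on average, Etv4 in AP-like nuclei, reported as -0.02, was 0.10 without both disputed libraries, 0.022 with no doublets removed, and -0.14 to 0.06 over the fits that left out 1 library each, among them 0.04 without wild-type MIA replicate 2, 0.03 without Csf1r-null saline replicate 2 and 0.058 without Csf1r-null MIA replicate 2. The Spry2 interaction in AP-like nuclei was 0.12 in nuclei of at least 1000 UMIs, and -0.53 to 0.31 over the fits that left out 1 library each, among them 0.19 without wild-type saline replicate 2, 0.31 without Csf1r-null saline replicate 1 and 0.03 without Csf1r-null MIA replicate 2.

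Another seed of the clustering and merging the AP-like classes were alternatives chosen after seeing the data. With the other seed 81.0% of nuclei kept their class, but 53.0% of CPN-like and 68.7% of SCPN-like nuclei did. Of 90 class levels, 90 stayed within 1 SD of the reported mean by the mean over nuclei and in nuclei of at least 1000 UMIs, and 87 with doublets kept. These alternatives kept the class borders. Whether the levels hold with the borders of the other seed was not tested. By Spearman correlation 13 of the 24 most alike genes stayed. With 2 libraries per group and few UMIs for Etv4, Spry1 and Spry4, small changes were not detectable. Larger ones could be missed too, since an interaction estimate of 1.50 for Spry1 in CPN-like nuclei was not called.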
